A study of Homo sapiens with 14 samples.

Results

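The genes of the nuclear pore complex were examined in IMR90, primary human fetal lung fibroblasts. They were taken as the protein-coding genes whose symbol is NUP followed only by digits, plus TPR, RANBP2, SEH1L, NDC1, POM121, RAE1 and SEC13, and pseudogenes were left out. This gave 28 genes of 20149 protein-coding symbols in the annotation, and all 28 were listed in every table. By place in the pore they comprised 8 genes of the Y complex, 5 of the inner ring, 3 of the central channel, 3 of the pore membrane, 4 of the cytoplasmic side, NUP98 with its partner RAE1, and 3 of the nuclear basket.

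Poly(A)-selected RNA was sequenced from cells of the isolates I79 and I10, each labelled young (proliferating) or old (passaged into replicative senescence). The titles of young and old samples name no treatment, while the paper describes its mRNA-seq controls as DMSO-treated. RNA also came from I79 cells treated with inflachromene (ICM), a small molecule that binds HMGB1 and HMGB2. The remaining groups were wild-type (WT) cells and cells with an siRNA knockdown of HMGB2 (HMGB2 KD). The HMGB2 KD and WT groups held 2 libraries each, with 33561766 to 41168932 counted reads. The isolate of these WT and HMGB2 KD cells is not given in the labels. Each young or old group held 2 titled samples but 1 deposited table, with 14991385 to 20632959 estimated counts. The isolates therefore served as the replicates. The ICM group held 2 libraries with 13290131 and 10971132 reads, and no table of cells without ICM counted in the same way was analysed here. All of this is 1 kind of fibroblast, IMR90. Nothing in the labels says that replicates came from separate cultures, so p-values do not measure a spread between cultures. They rest on the spread between these libraries or tables and on dispersion that the test shares across genes. Old against young left 1 residual degree of freedom, and HMGB2 KD against WT left 2.

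Nuclear pores are the channels through which proteins and RNA pass between nucleus and cytoplasm. Y complexes and the inner ring form the scaffold, transmembrane proteins anchor it where the inner and outer nuclear membranes fuse, and nucleoporins rich in phenylalanine-glycine repeats fill the channel and bind transport receptors. Dividing cells rebuild their pores after each mitosis and insert more during interphase, whereas scaffold nucleoporins of cells that no longer divide are known to be long-lived.

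Promoters of 4 members are printed because the comparison of old with young cells turned on them: NDC1 and NUP107 passed the test for lower expression, NUP35 had the lowest fold change, and NUP58 was the only member above 0. Each line holds the 150 bases before the RefSeq transcription start in GRCh38.p14, written 5′ to 3′ on the gene's strand, at chr1:53838297-53838446 (minus strand) for NDC1, chr12:68686828-68686977 (plus) for NUP107, chr2:183124293-183124442 (plus) for NUP35 and chr13:25301475-25301624 (plus) for NUP58. Capitals mark matches to the motifs described next.
NDC1: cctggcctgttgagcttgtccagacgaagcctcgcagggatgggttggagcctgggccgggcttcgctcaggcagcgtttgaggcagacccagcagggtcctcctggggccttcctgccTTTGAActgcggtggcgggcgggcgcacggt
NUP107: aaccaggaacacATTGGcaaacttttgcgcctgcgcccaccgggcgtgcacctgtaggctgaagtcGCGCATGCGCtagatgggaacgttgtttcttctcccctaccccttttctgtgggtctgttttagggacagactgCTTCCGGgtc
NUP35: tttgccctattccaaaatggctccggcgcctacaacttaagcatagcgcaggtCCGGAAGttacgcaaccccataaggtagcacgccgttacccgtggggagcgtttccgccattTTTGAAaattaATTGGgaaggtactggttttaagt
NUP58: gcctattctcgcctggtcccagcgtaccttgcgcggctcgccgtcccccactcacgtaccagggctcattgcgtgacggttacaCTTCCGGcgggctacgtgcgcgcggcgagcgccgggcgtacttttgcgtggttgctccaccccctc

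Motifs were searched on both strands in the window from 250 bases before to 50 bases after the start, and RefSeq windows were matched for 27 of 28 members (all but NUP43). The ETS motif CCGGAAG was in 12 of 27 member windows (44.4%), against 10.7% of all 27305 windows and 19.2% of the 11108 windows of genes tested in old against young cells. It lay just before the start of NUP107 and further upstream in NUP35 and NUP58. The NRF1 motif GCGCATGC was in 3 member windows (11.1%, against 3.27% of all windows and 5.51% of those of tested genes), those of NUP107, NUP62 and NUP50. The CCAAT box, bound by NF-Y, was in 11 member windows (40.7%, against 35.7% and 36.4%). The cell cycle homology region, searched as TTTGAA or TTCGAA, was in 6 (22.2%, against 16.6% and 11.3%), and 1 of its matches in NDC1 and the match in NUP35 lay within 40 bases of the start. The E2F letters TTTCCCGC, TTTGGCGC, TTTCGCGC and TTTGCCGC occurred in 1 member window, that of NUP155 (3.70%, against 3.33% and 5.34%). A match describes letters only, and these shares were not tested.

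The fibroblast identity of the cells was checked first. All 10 fibroblast markers were above 0 in all 10 tables, with a summed level of 13125 to 36105 CPM (reads scaled to the library total), lowest in the ICM libraries and higher in HMGB2 KD than in WT. Leukocyte markers summed to at most 1.55 CPM and epithelial markers to at most 8.72 CPM. The endothelial list summed to 52.2 to 207 CPM, almost all of it from TEK, while CDH5, which defines endothelium, was at 0 in all 10 tables. TEK was called higher in old cells (log2 fold change 1.24, adjusted p = 0.0047 in edgeR), from 95.3 CPM in young to 214 CPM in old I79, and VWF was at 2.69 without being called (adjusted p = 0.013). The cell cycle list of 34 genes summed to 2645 and 2905 CPM in young I79 and I10, 482 and 699 CPM in old cells, 193 and 183 CPM in ICM, 753 and 759 CPM after HMGB2 KD and 796 and 804 CPM in its WT controls, so proliferation markers moved together with every difference from the young tables described below. The part of these marker lists in those differences was not tested.

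The first question was how the pore genes differ between old and young cells. In each isolate most of them were lower in old cells. The largest change among genes that passed the test was in NDC1, and the inner ring had the lowest median of the pore groups with more than 2 members tested. Summed over all 28 genes, the members took 1915 and 1970 CPM in young I79 and I10, and 1317 and 1281 CPM in old I79 and I10. Of 27 members tested (NUP210 had too few reads), 26 had a fold change below 0, against 7645 of all 15116 genes. The median log2 fold change was -0.51 over the members and -0.01 over all genes. Both old tables lay below both young tables for 25 members, as they did for 37.5% of all genes. NUP58 had both old tables above both young tables, and POM121 overlapped. In these bulk samples, fewer cycling cells and less RNA per cell cannot be told apart.

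Only 2 of 27 members were called, which required an adjusted p below 0.01 together with a log2 fold change beyond 0.6 in either direction, in edgeR's quasi-likelihood test with Benjamini-Hochberg adjustment over all genes. Both were lower in old cells, NDC1 and NUP107, where 3.82% of all genes were called lower. No member was called higher, against 5.75% of all genes. At an unadjusted p under 0.05, 19 members were lower, against 22.4% of all genes, and 1 was higher, against 22.9%. At an adjusted p under 0.05, 11 members fell by more than 0.6 on the log2 scale (12.1% of all genes), and 16 were lower with no fold change minimum (15.4% of all genes). At that last threshold 1 member, NUP58, was higher, against 16.6% of all genes. DESeq2 called 3 members, all lower, and called 5.68% of all genes lower. With plain library totals, which moved the median of all genes to -0.22, 17 members were called lower, against 14% of all genes. Calls over all genes were then 2111 lower and 1019 higher, against 578 lower and 869 higher with TMM scaling.

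**Figure D1:**
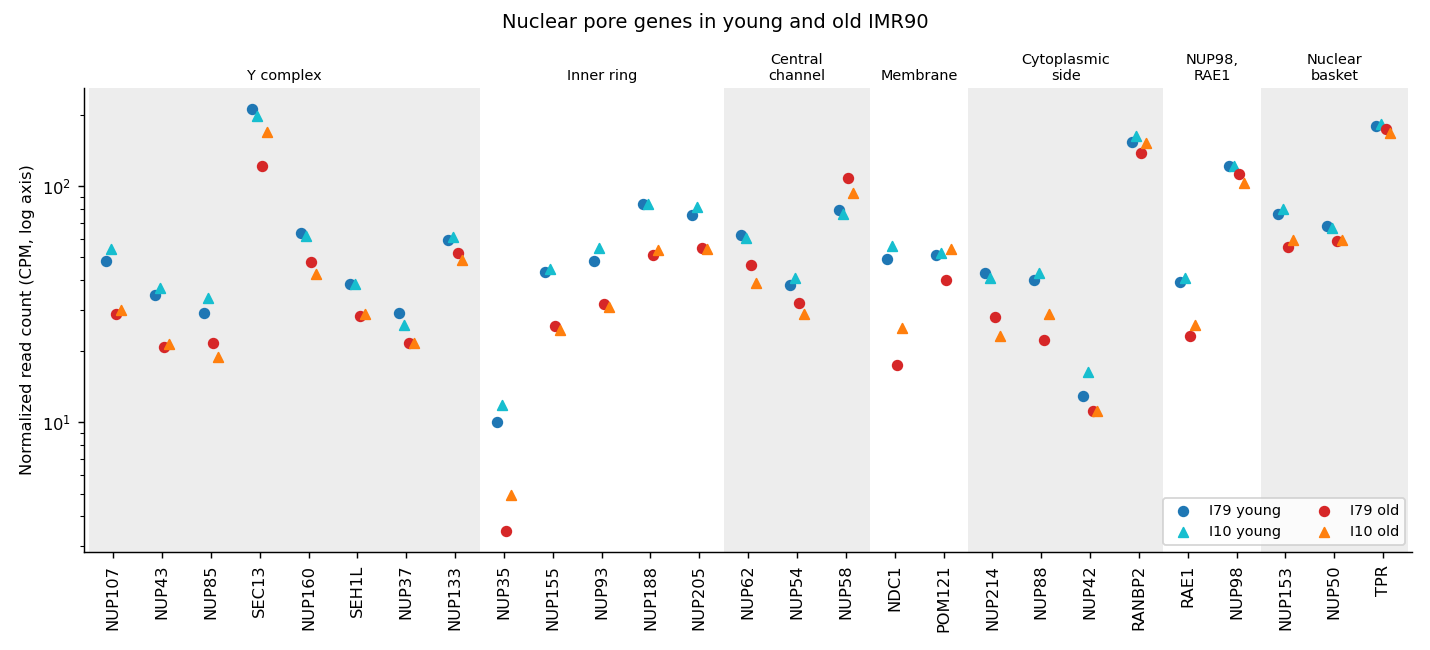
Normalized read count (CPM with TMM scaling, log axis) of each of 27 nuclear pore genes in the I79 and I10 young tables (blue and cyan) and old tables (red and orange), 1 point per table and grouped by place in the pore. Old points lie below young points for 25 genes, above them for NUP58, and overlap for POM121.

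NDC1 encodes a transmembrane nucleoporin needed to anchor and assemble pores, and lies at chr1:54231151-54304136 (minus strand, GRCh37). Its normalized read count was 49.4 CPM in young I79, 17.5 CPM in old I79, 55.7 CPM in young I10 and 25.0 CPM in old I10. Both old tables were far below both young ones. The log2 fold change was -1.32 (SE 0.14), with an adjusted p of 0.0059 in edgeR's quasi-likelihood test. By isolate, the log2 ratio of old to young was -1.49 in I79 and -1.15 in I10. None of its exon bases are shared with another annotated gene.

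The other transmembrane members were not called. POM121, a membrane nucleoporin with repeats that face the channel, measured 51.0 CPM in young I79, 40.3 CPM in old I79, 52.2 CPM in young I10 and 53.9 CPM in old I10. The isolates differed in direction and the groups overlapped, with the fitted log2 fold change at -0.14 (SE 0.14, adjusted p = 0.45 in edgeR). POM121C, a near-identical copy, had a log2 fold change of 0.13 and was not called, and reads could have been split between the copies. NUP210, a membrane glycoprotein studied in muscle differentiation, had 1 and 1 estimated counts in the young tables and 6 and 5 in the old tables of I79 and I10, and was too low to test.

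The Y complex, built into the outer rings on both faces of the pore, had 8 members tested, and all 8 were lower in both old tables than in both young ones. Their median log2 fold change was -0.49. NUP107, a core subunit on chromosome 12 (chr12:69080731-69139589, plus strand, GRCh37), measured 48.1 CPM in young I79, 28.7 CPM in old I79, 54.1 CPM in young I10 and 29.8 CPM in old I10. Its young tables were well separated from its old tables, with similar ratios in both isolates. The log2 fold change was -0.80 (SE 0.11), with an adjusted p of 0.0099 in edgeR. That p lies just under the threshold of 0.01.

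NUP43, a beta-propeller subunit of the same complex, had a log2 fold change of -0.76 and an adjusted p of 0.013 in edgeR. SEC13 is shared with the COPII coat of secretory vesicles and was the member with the highest level per length, at 278 and 263 TPM in young I79 and I10, and 147 and 193 TPM in old I79 and I10. Its log2 ratio of old to young was -0.80 in I79 but -0.22 in I10, the largest gap between isolates of any member in that direction, and it did not pass (adjusted p = 0.077 in edgeR). NUP85 showed the reverse order, at -0.41 in I79 and -0.82 in I10. The differences between isolates could not be tested with 1 table per group. SEH1L, also a part of the GATOR2 complex of nutrient sensing, had nearly equal ratios of -0.44 and -0.43. NUP133, NUP160 and NUP37 had fold changes from -0.46 to -0.25.

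The inner ring had the lowest median of the groups with more than 2 tested members, at -0.71, and all 5 of its genes were lower at an adjusted p under 0.05, though none at 0.01. NUP35, a small subunit that contacts the membrane, measured 10.05 CPM in young I79, 3.47 CPM in old I79, 11.9 CPM in young I10 and 4.92 CPM in old I10. Its old levels were the lowest of any tested member and less than those of both young tables. The log2 fold change of -1.40 (SE 0.20) was the lowest among members, and its adjusted p of 0.0106 in edgeR narrowly missed the threshold. It rested on 64 and 89 estimated counts in the old tables of I79 and I10. NUP155, which also touches the membrane, was at -0.81 (adjusted p = 0.011 in edgeR), NUP93, which links the ring to the channel, at -0.71, and NUP188 and NUP205, a pair of related scaffold proteins, at -0.67 and -0.53.

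In the central channel, NUP62, NUP58 and NUP54 form 1 trimer whose repeats make up much of the permeability barrier. None of the 3 was called. NUP62 measured 61.96 CPM in young I79, 46.4 CPM in old I79, 60.2 CPM in young I10 and 39.0 CPM in old I10, lower in old cells of both isolates (log2 fold change -0.52, SE 0.11, adjusted p = 0.028 in edgeR). Of its exon bases 20.1% are shared with other genes, among them IL4I1 and ATF5. NUP58 measured 78.99 CPM in young I79, 108 CPM in old I79, 75.9 CPM in young I10 and 93.1 CPM in old I10. It was the only member above 0, at 0.37 (SE 0.10, adjusted p = 0.0495 in edgeR, short of the threshold). With plain library totals the value was 0.16 and with counts made from TPM 0.29, and DESeq2 gave an adjusted p of 0.18. NUP54 was at -0.38.

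**Figure D2:**
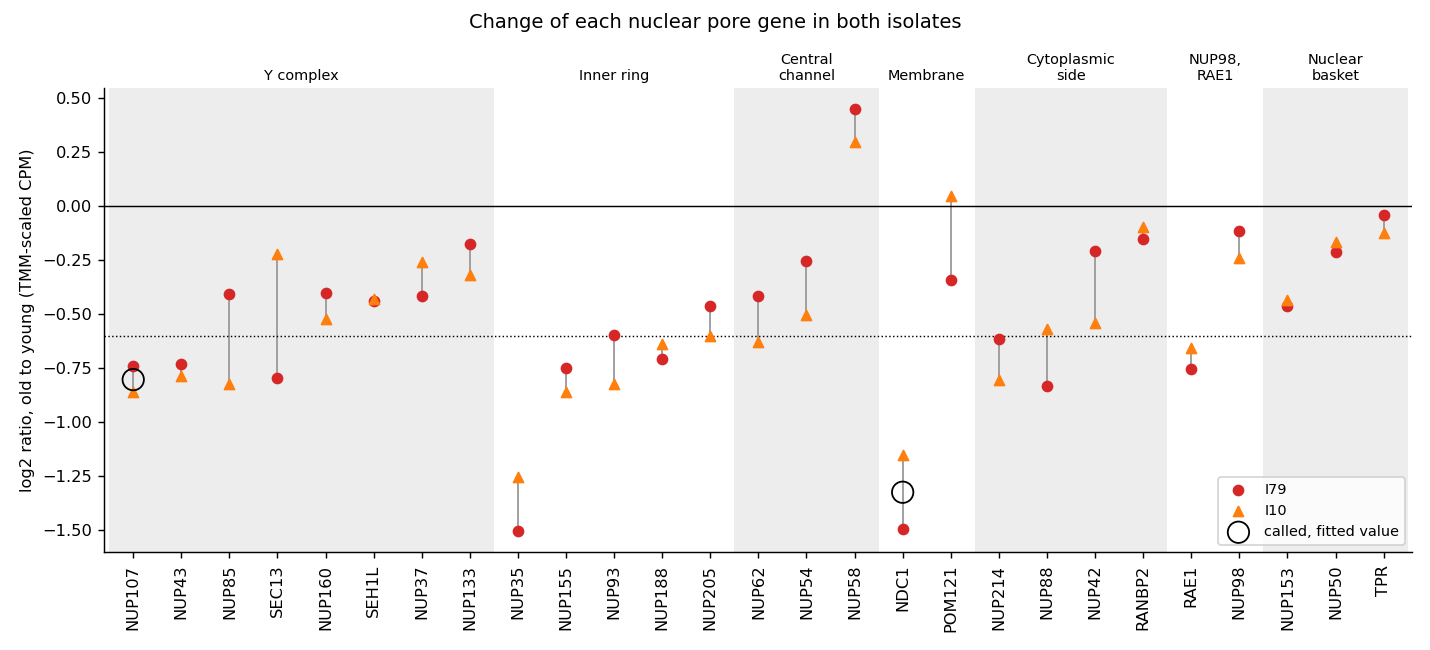
Log2 ratio of old to young (TMM-scaled CPM) for each nuclear pore gene in I79 (red circles) and I10 (orange triangles), with a grey line joining the isolates and open circles at the fitted values of the 2 genes called. The dotted line marks -0.6, and 8 genes lie below it in both isolates.

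A log2 ratio under -0.6 in both isolates was found for 8 of 27 members, against 13.1% of all genes, as the plot of isolate ratios shows. These were NDC1, NUP107, NUP43, NUP35, NUP155, NUP188, NUP214 and RAE1. They came from the membrane, the Y complex, the inner ring, the cytoplasmic side and the NUP98 group. NUP93 lay just outside, at -0.60 in I79 and -0.82 in I10.

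On the cytoplasmic side, NUP214 and NUP88 form a complex that takes part in export of mRNA and proteins. NUP214 measured 43.0 CPM in young I79, 27.99 CPM in old I79, 40.8 CPM in young I10 and 23.3 CPM in old I10. The old tables were clearly below the young ones, and the log2 fold change was -0.71 (SE 0.12, adjusted p = 0.016 in edgeR). With counts made from TPM it was -0.39 (adjusted p = 0.28 in edgeR). NUP88 was at -0.70, but 35.5% of its exon bases are shared with RABEP1 and RPAIN. RANBP2, the SUMO ligase that forms the cytoplasmic filaments, was at -0.13 (adjusted p = 0.37), and NUP42, a partner of the export factor GLE1, at -0.38 (adjusted p = 0.15), both in edgeR. With counts made from TPM, NUP42 was at -0.90 (adjusted p = 0.016 in edgeR).

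RAE1, an mRNA export factor that binds NUP98, measured 39.3 CPM in young I79, 23.2 CPM in old I79, 40.7 CPM in young I10 and 25.8 CPM in old I10. It was lower in both old tables (log2 fold change -0.71, SE 0.12, adjusted p = 0.015 in edgeR), whereas its partner NUP98 was at -0.18 (adjusted p = 0.23). In the nuclear basket, the fibres on the inner face of the pore, NUP153 measured 76.6 CPM in young I79, 55.5 CPM in old I79, 80.2 CPM in young I10 and 59.3 CPM in old I10. Its log2 fold change was -0.45 (SE 0.10, adjusted p = 0.028 in edgeR). TPR, the main structural protein of the basket, was nearly level at 180, 175, 183 and 168 CPM in young I79, old I79, young I10 and old I10, and its log2 fold change was -0.08 (SE 0.10). NUP50, which helps to release import cargo, was at -0.19.

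NUP98 is read into a precursor that is cut into NUP98 and NUP96, a Y complex subunit, and into shorter transcripts that encode NUP98 alone. The deposited TPM values were summed by length of the coding sequence. The classes were chosen after the values were seen. The 5 precursor transcripts, with 1726 to 1817 codons, summed to 27.3 TPM in young I79, 28.3 TPM in old I79, 30.3 TPM in young I10 and 27.2 TPM in old I10. On this TPM scale, which had no TMM scaling unlike the fitted values, they were about level in both isolates. The 4 transcripts of 752 to 1182 codons summed to 5.49 TPM in young I79, 2.84 TPM in old I79, 9.20 TPM in young I10 and 1.77 TPM in old I10. These were lower in both old tables. The class includes NUP98-215, annotated as a target of nonsense-mediated decay, at 0.94 TPM in young and 1.90 TPM in old I79 and at 0.83 TPM in young and 0.65 TPM in old I10. The precursor share of NUP98 TPM was 61.4% in young and 87.5% in old I79, and 71.9% in young and 83.6% in old I10. In I79 most of that difference lay in the 11 remaining transcripts, at 11.7 TPM in young and 1.21 TPM in old cells, whereas in I10 they were at 2.66 and 3.57 TPM. No test was made, since estimates for single transcripts had no replicate within an isolate. In I10 young, 4.43 TPM of the shorter class came from NUP98-207, a transcript at 0 in the other tables. The shorter transcript NUP98-205, with 937 codons, was at 4.55 and 0.95 TPM in young and old I79 and at 3.94 and 1.12 TPM in young and old I10.

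**Figure D3:**
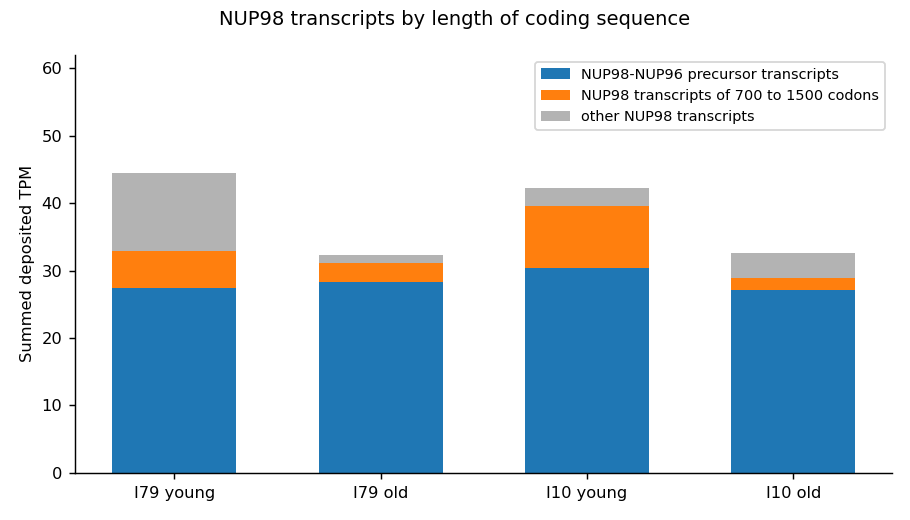
Summed deposited TPM of NUP98 transcripts in the 4 old and young tables, stacked by length of the coding sequence (blue, NUP98-NUP96 precursor, orange, shorter NUP98 sequences, grey, others). The blue part stays between 27.2 and 30.3 TPM and the orange part is lower in both old tables.

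The other genes of the transport pathway were read from the same fit. Of 34 soluble transport and Ran cycle genes tested, 4 were called lower and 1 was called higher. Their median was -0.24 on the log2 scale. The importin KPNA2 fell by 1.74, going from 222 CPM in young I79 to 54.7 CPM in old I79 and from 231 CPM in young I10 to 84.4 CPM in old I10 (SE 0.17, adjusted p = 0.0055 in edgeR). RANBP1, a cofactor of Ran, fell by 1.05, the importin IPO9 by 0.86 and CSE1L, which returns importins to the cytoplasm, by 0.80. RANGAP1, the activator of Ran hydrolysis that RANBP2 holds at the pore, rose by 0.84 (SE 0.10, adjusted p = 0.0076 in edgeR), going from 111 CPM in young I79 to 199 CPM in old I79 and from 113 CPM in young I10 to 202 CPM in old I10. The cell cycle list had 30 of 33 tested genes called lower, with a median of -2.19. Its median was well below that of the pore genes. Of the pore proteins outside the naming rule, AHCTF1, which seeds pore assembly on chromatin, was at -0.12 and AAAS, a protein held at the pore by NDC1, at -0.25, and neither was called. NUP210L and NUP62CL had at most 5 counts in any old or young table.

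The next question was whether knockdown of HMGB2 alone changed the pore genes. HMGB2 itself stood at 27.1 and 27.3 CPM in the WT libraries, against 3.22 and 3.64 CPM after the knockdown. Its log2 fold change was -2.99 (SE 0.16, adjusted p = 8.3e-07 in edgeR), in the direction of the label. None of the 27 members tested was called between HMGB2 KD and WT, where 5.2% of all genes were. DESeq2 also called 0, and 4 members had an unadjusted p under 0.05 in edgeR, 2 in each direction, against 23.9% of all genes. The median log2 fold change was -0.07 over the members and 0.00 over all genes, with 8 members above 0 and 19 below. The range ran from -0.69 to 0.47. The HMGB2 KD and WT libraries did not overlap for 13 members (10 lower, 3 higher), against 53.8% of all genes.

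At an adjusted p under 0.05 with no fold change minimum, 2 members passed, against 10.9% of all genes, and both belong to the Y complex but are shared with other complexes. SEC13 measured 168 and 163 CPM in the WT libraries, against 212 and 238 CPM after the knockdown. Both knockdown libraries were above both WT libraries (log2 fold change 0.44, SE 0.13, adjusted p = 0.047 in edgeR). SEH1L measured 36.9 and 35.7 CPM in the WT libraries, against 28.8 and 23.4 CPM after the knockdown, and all knockdown values were below WT (log2 fold change -0.48, SE 0.14, adjusted p = 0.047 in edgeR). NUP37 and NUP43 were at 0.47 and -0.47, with adjusted p of 0.083 and 0.070 in edgeR. With 1 factor of the RUVs method added to edgeR, adjusted p was 0.0050 for NUP37, 0.0058 for SEC13, 0.011 for SEH1L and 0.019 for NUP43. Calls over all genes were then 1162, against 797. DESeq2 gave an adjusted p of 0.0092 for SEC13, and 0.037 to 0.11 for the others. All stayed inside the fold change minimum. These subunits stood on both sides of WT, but none was called. Their directions were not tested as a pattern of the complex.

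**Figure D4:**
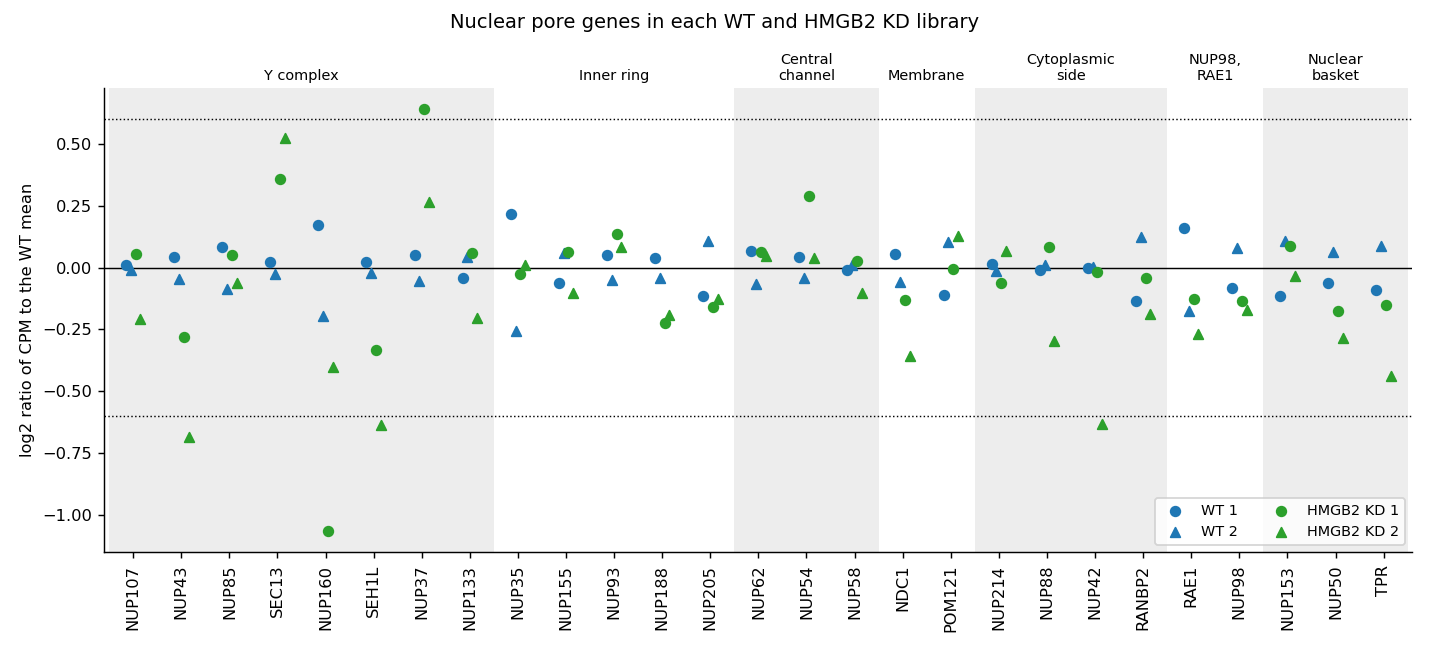
Log2 ratio of the normalized read count to the WT mean for each nuclear pore gene in the 2 WT libraries (blue) and the 2 HMGB2 KD libraries (green), with dotted lines at 0.6 and -0.6. Most green points lie within the dotted lines, and NUP160 in HMGB2 KD replicate 1 is the lowest point.

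NUP160 had the lowest fold change, and it was also poorly counted in these tables. It held 128 and 108 reads in WT and 58 and 100 in HMGB2 KD, or 3.74, 2.89, 1.58 and 2.51 CPM. The knockdown libraries were below WT without overlap, but the log2 fold change was -0.69 (SE 0.32), which did not pass (adjusted p = 0.21 in edgeR). In the young tables NUP160 reached 63.4 CPM in I79 and 61.2 CPM in I10. Why it was so low in the WT and HMGB2 KD tables was not tested.

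In each of the other pore groups the member furthest from 0 stayed inside the fold change minimum. NUP188, a ring scaffold protein, measured 70.6 and 66.7 CPM in the WT libraries, against 58.7 and 60.0 CPM after the knockdown, lower without overlap (log2 fold change -0.21, SE 0.12, adjusted p = 0.33 in edgeR). NUP54 measured 31.3 and 29.5 CPM in the WT libraries, against 37.1 and 31.2 CPM after the knockdown, and the groups overlapped (0.17, SE 0.14, adjusted p = 0.52 in edgeR). NDC1 measured 22.6 and 20.9 CPM in the WT libraries, against 19.9 and 17.0 CPM after the knockdown (-0.24, SE 0.15, adjusted p = 0.35 in edgeR). It was lower without overlap, by far less than between old and young cells. The WT level was already close to that of old cells (17.5 CPM in I79 and 25.0 CPM in I10). It was well below that of young cells (49.4 and 55.7 CPM), though these tables were counted and scaled separately.

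NUP42 measured 16.1 and 16.1 CPM in the WT libraries, against 15.9 and 10.4 CPM after the knockdown, with the first knockdown library just below WT and the second well below (log2 fold change -0.29, SE 0.19, adjusted p = 0.38 in edgeR). RAE1 measured 36.98 and 29.3 CPM in the WT libraries, against 30.3 and 27.5 CPM after the knockdown, with overlap (-0.20, SE 0.15, adjusted p = 0.47 in edgeR). TPR measured 192 and 217 CPM in the WT libraries, against 184 and 151 CPM after the knockdown, lower without overlap (-0.29, SE 0.14, adjusted p = 0.24 in edgeR). NUP107, called lower in old cells, was at -0.07 here. Its WT level was 30.1 and 29.6 CPM, against 28.7 and 29.8 CPM in old and 48.1 and 54.1 CPM in young I79 and I10. What set these WT levels was not tested. The transport list had 0 of 33 genes called in edgeR and in DESeq2 (9 at an unadjusted p under 0.05 in edgeR), with a median of -0.01. The cell cycle list had 0 of 34 genes called in edgeR and in DESeq2 (3 at an unadjusted p under 0.05 in edgeR), with a median of -0.02. The lowest adjusted p values in the transport list belonged to the importins KPNA6, KPNA5 and IPO11, at 0.014, 0.018 and 0.0199 in edgeR, with log2 fold changes of -0.53, -0.72 and -0.81. None of them reached 0.01.

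The last question was where ICM-treated I79 cells stand relative to young and old I79. The ICM tables were counted per transcript region, the young and old tables per transcript, so counting and treatment cannot be told apart and no test was made. Ratios were taken between log2 CPM over 25306 genes shared by all tables. Relative to young I79, the median log2 ratio of the ICM libraries was -0.85 over 27 pore genes, against -0.04 over 13961 genes. The ratio was under -0.6 for 19 members, where 30.3% of all genes were. The transport list had a median of -0.59, with 17 of 34 genes under -0.6, and the cell cycle list a median of -4.99. WT to I79 young, also a comparison across counting methods but without ICM, gave a median of -0.33, with 6 members under -0.6 against 23.9% of all genes. Here the cell cycle list had a median of -2.06 and the isolate of WT is not given. Counting, proliferation and isolate therefore cannot be told apart in this ratio. In the same scale, I10 young to I79 young had a median of 0.06. Old I79 to young I79 had a median of -0.61 over the 27 pore genes in that scale, against -0.16 over all genes. Its ratio was under -0.6 for 14 members, against 25.4% of all genes.

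**Figure D5:**
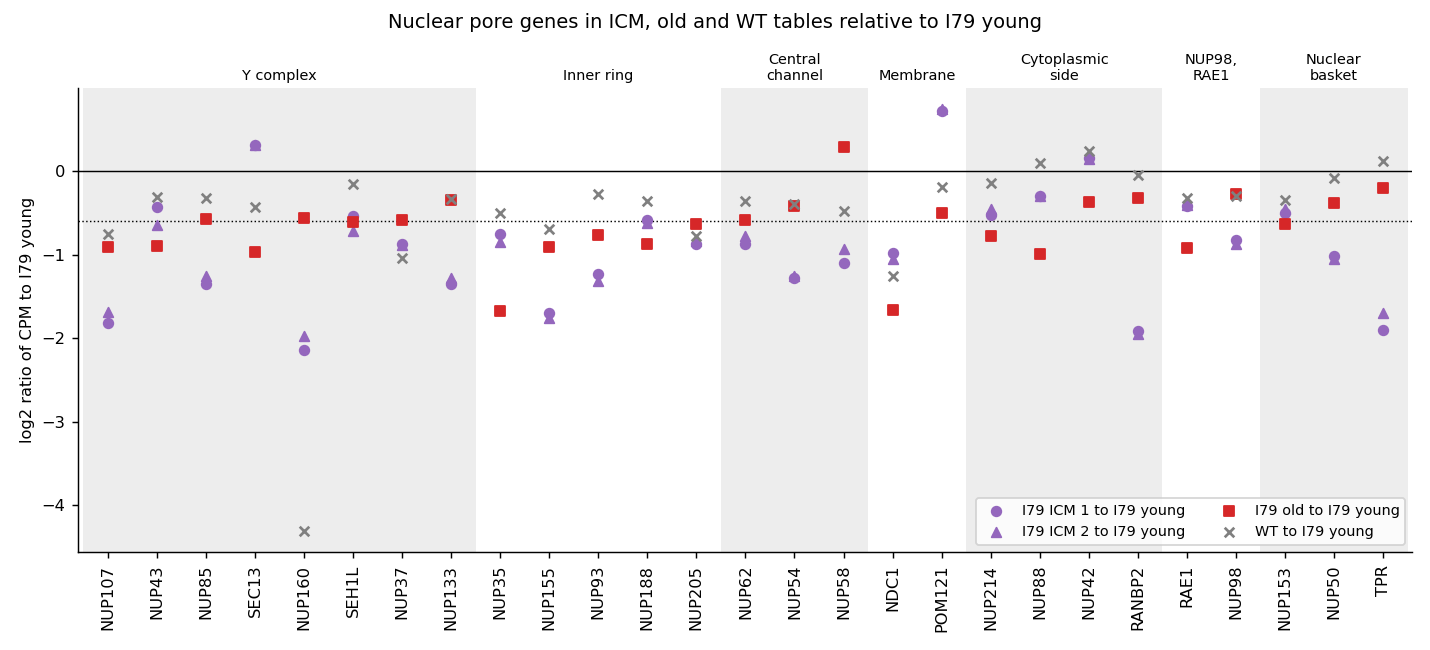
Log2 ratio of CPM to I79 young over shared genes for each nuclear pore gene in ICM replicates 1 and 2 (purple), old I79 (red squares) and the WT mean (grey crosses), with a dotted line at -0.6. TPR and RANBP2 lie far below old I79 in both ICM replicates, and POM121 and SEC13 lie above 0.

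Under ICM the lowest ratios included filament genes. RANBP2 was at 45.6 and 44.8 CPM in the ICM libraries, 173 CPM in young I79 and 138 CPM in old I79. TPR was at 53.8 and 61.97 CPM in the ICM libraries, 202 CPM in young I79 and 175 CPM in old I79. Both filament genes, close to their young level in old cells, were far lower in both ICM libraries than in every other table, at log2 ratios to young of -1.93 and -1.81. In WT they were at -0.05 and 0.11. With coding and noncoding reads of the ICM tables only, RANBP2 was at -1.36 and TPR at -1.20. NUP50 was then the lowest member, at -1.69, so the order of members depends on the regions counted.

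Several scaffold genes were also lowest in ICM. NUP107 measured 15.3 and 16.7 CPM in ICM, 54.1 CPM in young I79 and 28.8 CPM in old I79. NUP155 measured 15.0 and 14.3 CPM in ICM, 48.7 CPM in young I79 and 25.8 CPM in old I79. In both, ICM was below old, and old below young. NUP160 had the lowest ratio to young, -2.06, at 16.1 and 18.1 CPM in ICM and 71.3 CPM in young I79, but WT was lower still at -4.30. The channel genes NUP54, NUP58 and NUP62 were at -1.27, -1.01 and -0.83, and NUP98 at -0.85.

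Other members were higher in ICM than in old I79. POM121 measured 94.0 and 96.0 CPM in ICM, 57.4 CPM in young I79 and 40.3 CPM in old I79. With all regions counted it was the only member with a log2 ratio to young over 0.6. With coding and noncoding reads of the ICM tables only, POM121 was at 0.42 and SEC13 at 0.63. Which member passed 0.6 therefore depends on the regions counted. SEC13 measured 296 and 297 CPM in ICM, 239 CPM in young I79 and 122 CPM in old I79. NDC1 measured 27.99 and 26.8 CPM in ICM, 55.5 CPM in young I79 and 17.5 CPM in old I79, and so lay between them. NUP35 also lay between, at 6.67 and 6.22 CPM in ICM, 11.3 CPM in young I79 and 3.48 CPM in old I79. Against old I79 the median ratio was -0.24, with 10 members under -0.6 (26.6% of all genes) and 5 over 0.6 (32.4% of all genes). These 5 were SEC13, POM121, NUP35, NUP88 and NDC1. RANBP2, TPR, NUP160 and NUP58 were the lowest against old I79, at -1.61, -1.60, -1.49 and -1.30. With coding and noncoding reads of the ICM tables alone the median against young was -0.76. Single members moved more, NUP50 from -1.03 to -1.69 and NUP188 from -0.605 to -0.05. Across the 27 members the ratio to young had a Spearman rho of -0.27 with the number of exon bases, as a description, since all points share these libraries.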

How the data were processed

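Per the submitters' processing notes, STAR 2.6.0c, featureCounts, DESeq2 and deepTools were used with GRCh37. The study's methods give STAR as the aligner and featureCounts as the counter for its RNA-seq, and for the RNA-seq matched to ribosome profiling say only that reads were assigned to transcripts. The authors deposited whole-number counts per gene for WT and HMGB2 KD, of which the rows that name no gene were left out (16.9% to 18.0% of each total). They deposited estimated counts and TPM per transcript for old and young cells, 1 table for 2 titled samples, and for ICM reads split by transcript region. The estimated counts and TPM have the columns of a salmon file, which the tools named do not write, and which of these methods made the ICM tables is not given in the sources used here. Estimated counts were summed per gene through GENCODE v44 on GRCh37 and rounded, and at least 97.2% of them matched.

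Tests were edgeR 4.0.16 (TMM, filterByExpr, quasi-likelihood, Benjamini-Hochberg) in R 4.3.3, with isolate as a covariate for old against young, and DESeq2 1.42.0 as an alternative. Each SE printed is the absolute log2 fold change divided by the square root of the F statistic of the edgeR test. The steps were tested on simulated data in which 200 genes were shifted by a log2 value of 1.5, and 88.5% of them were recovered with 1 false call for HMGB2 KD against WT (15032 genes) and 83.5% with 3 false calls for old against young (14832 genes). That simulation used 1 dispersion for all genes and no difference between isolates. Its shift was larger than the change of any tested member, so the shares recovered do not describe changes of member size. ICM ratios used a prior count of 2 and genes with a mean of at least 10 reads. Depth sets the error of low members such as NUP35 and NUP160. No p was corrected for sharing of exon bases.

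Statistics were printed for members called, and for the member furthest from 0 in each pore group, and other members were summarised. NUP58, POM121, TPR and SEC13 in old cells, SEC13, SEH1L, NUP37, NUP43 and NUP107 in HMGB2 KD, the transport genes in HMGB2 KD and the members given in the ICM libraries were named after their values were seen. Members, lists and motifs were chosen with earlier results of these data known. Protein sequences were not used here.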

Additional observations from a re-analysis of the deposited data

Results flagged for a closer look

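POM121 was the only member whose ratio of old to young had opposite signs in the 2 isolates, with a log2 ratio of -0.34 in I79 and 0.048 in I10. This difference was not tested, since each isolate has 1 table per age, and the value in I10 is small. With plain library totals over shared genes POM121 measured 59.2 CPM in young I10 and 51.2 CPM in old I10, so the sign in I10 turns with the scaling.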

How the results depend on the processing

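For HMGB2 KD against WT, 0 members were called under every alternative that kept the fold change minimum or the adjusted p of 0.01, including each library left out. The sign of several uncalled members near 0 turned with a library left out. Without HMGB2 KD replicate 2, NUP107 was at 0.060, NUP133 at 0.064 and NUP88 at 0.086, while NUP214 turned the other way, to -0.058. The member median was -0.01 without HMGB2 KD replicate 2, with 12 members above 0, and -0.18 without HMGB2 KD replicate 1, with 8 above 0. The transport list had 2 genes called, both lower, at an adjusted p under 0.05, with library totals, with no filter on low counts and with 1 factor of the RUVs method, and 0 to 1 with a library left out (1 without WT replicate 2). The replicate block by the numbers of the titles also gave 2 transport genes and 1243 calls over all genes, against 797. Deviations of same-numbered WT and HMGB2 KD libraries correlated at 0.12 over 2 pairs, and the labels give the numbers no shared origin. For old against young the isolate was the covariate and so paired the tables, and no replicate block could be added, since those tables carry no replicate number.

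For old against young, the 2 members called became 5 with DESeq2 size factors (679 genes called lower of 15116), 17 with library totals, 11 with no filter on low counts (2042 of 28880), 11 at an adjusted p under 0.05 and 7 with no isolate covariate (760 of 15116), and all of these were lower. Counts made from TPM moved TPR to -0.23, NUP133 to -0.15 and RANBP2 to -0.08, none of them called. Among values of single members under these alternatives, 171 were counted as unchanged and 33 passed only under the alternative. Unchanged meant the same direction and side of the threshold or, from 1 isolate alone with no test, within the SE of the main value. Another 12 values from 1 isolate alone differed by more than that SE. The sign turned only for POM121 in I10 alone (0.048). The 5 transport genes called became 9 at an adjusted p under 0.05, 15 with library totals and 9 with no filter. Library totals moved the median of all genes from -0.01 to -0.22, and calls over all genes from 869 higher of 1447 to 1019 higher of 3130. In HMGB2 KD against WT they moved from 438 higher of 797 to 385 of 869. Calls over all genes were 4251 with no filter and 3860 at an adjusted p under 0.05, and for HMGB2 KD against WT 312 to 999 with a library left out (312 without HMGB2 KD replicate 2 and 548 without WT replicate 1), against 797.

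The ICM median against I79 young of -0.85 was -0.84 with TMM scaling, -0.76 with coding and noncoding reads only, -0.39 with WT and -0.97 with I10 young as the reference, and -0.87 without either ICM replicate. Against I79 old, -0.24 became -0.39 with TMM scaling, -0.16 with coding and noncoding reads and -0.29 to -0.21 with an ICM replicate left out. What sets these shifts was not tested. The count of phenylalanine-glycine repeats per protein was not run.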

Other observations

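Per length, the order of the members was led by SEC13 in young and in old cells, at a mean of 270.5 and 170 TPM over the isolates. TPR stood at rank 3 in young and rank 2 in old cells, at 50.6 and 38.0 TPM. NUP107 moved from rank 5 to rank 13 of the 28 members, from 43.8 to 19.8 TPM, NUP42 from rank 13 to rank 20, and NUP58 from rank 11 to rank 3, at 33.7 and 36.4 TPM. By TPM, NUP58 was higher in old I79 (33.8 to 40.2) and slightly lower in old I10 (33.7 to 32.7), unlike its TMM-scaled counts. NUP210 was last, under 0.3 TPM in every table.

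For NUP107 the coding transcript NUP107-202, with 686 codons, measured 14.8 and 4.30 TPM in young and old I79 and 20.5 and 7.11 TPM in young and old I10, whereas the coding transcript with 896 codons measured 9.07, 9.21, 7.92 and 6.45 TPM in the same order. NUP107-209, annotated as a target of nonsense-mediated decay, measured 12.4, 0, 13.96 and 4.00 TPM in that order. Transcripts not annotated as protein-coding held 43.9% and 31.8% of NUP107 TPM in young and old I79. In young and old I10 they held 35.6% and 29.1%. For NDC1 nearly all TPM came from NDC1-201 (16.1 and 5.23 TPM in young and old I79, 18.6 and 7.15 TPM in young and old I10). No test was made on these estimates.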
